A study of Mus musculus with 10 samples.

Results

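The genes described are the 80 protein-coding genes of the mouse whose symbols name a protein of the cytosolic ribosome: Rpl and a number for the large subunit, Rplp0 to Rplp2 for its stalk, Rps and a number for the small subunit, and Rpsa. They were chosen by symbol and biotype from 55536 genes in the deposited tables. Of them 49 belong to the large and 31 to the small subunit. The rule uses none of their values, but members were chosen with earlier results of these data known. Pseudogenes and ribosomal proteins with other symbols, such as Fau, Rack1 and Rps3a1, fall outside that rule. RNA was sequenced from live, GFP-positive germ cells sorted from female mouse embryos at E16.5, with 5 libraries from Taf4b-heterozygous and 5 from Taf4b-deficient embryos. The gene encodes a subunit of the general transcription factor TFIID that is enriched in gonads. All embryos came from parents heterozygous for Taf4b-deficiency and homozygous for the Oct4-EGFP transgene (B6;129S4-Pou5f1tm2Jae/J), on a background labelled C57BL/6, so both genotypes carry the transgene, and a wild-type group was not analysed here. The labels give 3 litter dates and do not say which embryos stand behind which library, so every p-value measures only the spread between these libraries, which may be technical.

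The cytosolic ribosome translates every nuclear-encoded mRNA. Its large subunit forms peptide bonds and holds the exit tunnel, and its small subunit decodes the mRNA. The ribosomal proteins are needed in nearly equal amounts, and their mRNAs belong to the TOP class in mammals: transcription starts at a C that is followed by an unbroken run of C and T, through which mTORC1 signalling and the binding protein LARP1 control translation and mRNA stability. In fetal ovaries at this age the oocytes are in meiotic prophase, and ribosomes made by the growing oocyte are later part of the maternal store of the egg.

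RefSeq promoter windows (GRCm38.p6, 250 bases before and 50 after an annotated start) were found for 60 of the 80 genes, 72 windows in all. A start at C followed without a break by 4 or more further C or T was present in 13 of 72 windows (18.1%), against 2.51% of the 32851 promoter windows in the table. The start is the one annotated and was not measured in these cells. To show what such a start looks like, 6 members that have it are given from 10 bases before to 20 bases from the annotated start, 5′ to 3′, with the first transcribed base and the unbroken C and T run in capitals.
Rps6 (chr4:86857348-86857377, minus strand): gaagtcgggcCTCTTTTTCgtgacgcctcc
Rpl35 (chr2:39005112-39005141, minus strand): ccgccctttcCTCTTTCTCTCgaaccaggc
Rpl15 (chr14:18270967-18270996, minus strand): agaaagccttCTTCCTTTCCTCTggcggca
Rps10 (chr17:27635225-27635254, minus strand): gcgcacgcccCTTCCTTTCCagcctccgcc
Rps27 (chr3:90213629-90213658, minus strand): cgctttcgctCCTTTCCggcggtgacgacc
Rpl28 (chr7:4792955-4792984, plus strand): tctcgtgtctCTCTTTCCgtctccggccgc
The next set is shown for contrast: it holds members that the results below turn on and whose annotated start lacks that run. The capital marks the annotated first base.
Rps4x (chrX:102189372-102189401, minus strand): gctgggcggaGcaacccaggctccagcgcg
Rpl39 (chrX:37085203-37085232, minus strand): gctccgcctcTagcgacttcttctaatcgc
Rpl13a (chr7:45128726-45128755, minus strand): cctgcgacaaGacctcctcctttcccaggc
Rpl10l (chr12:66284382-66284411, minus strand): cctccattttGcggctggcggtgggcacgc
Rpl39l (chr16:10170218-10170247, plus strand): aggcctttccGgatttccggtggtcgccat
Rpl3l (chr17:24727816-24727845, plus strand): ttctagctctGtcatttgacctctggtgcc
Rps6, the target of the S6 kinases, has a run of 9 pyrimidines and Rpl35 one of 11, whereas Rpl10l, Rpl39l and Rpl3l, the paralogs described below, begin at G in the windows shown; Rpl3l has a further annotated start, not shown, that begins at A. The letters CTCTTTC were found on either strand in 27.8% of the members' windows against 8.16% of all windows, and overlap the pyrimidine run in part of them. CCGGAAGT was found on either strand in 16.7% against 3.89%, TATAAA in 8.33% against 13.6%, CCAAT in 30.6% against 37.4%, and GGGCGG in 58.3% against 35.7%. The 13 members with a TOP-like start had a median log2 fold change (deficient over heterozygous) of 0.41, and the 47 without one had a median of 0.357.

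Library totals lay between 16707200 and 26983600 counts, heterozygous 3 being the deepest. Levels are given as CPM, counts scaled to a common library size with TMM factors. Taf4b itself was at 271, 290, 142, 65.7 and 101 CPM in heterozygous 1 to 5 and at 80.7, 81.7, 80.2, 73.7 and 58.2 CPM in deficient 1 to 5. The library labelled heterozygous 4 lies inside the range of the deficient libraries, and where in the gene the disruption lies relative to these counts is not given in the sources used here. All 6 germ cell markers were found, none of them at 0 in any library, and their sum was 3823 to 5626 CPM in heterozygous libraries against 3117 to 4949 CPM in deficient ones. Sycp3, of the meiotic chromosome axis, was at 588 to 1802 CPM, whereas Pou5f1, the gene behind the Oct4 sort marker, was at 0.173 to 1.16 CPM. Sums over 6 pregranulosa markers were 29.05 to 77.58 and 22.33 to 74.37 CPM, over 6 stroma markers 13.46 to 60.74 and 13.86 to 91.96 CPM, over 4 surface epithelium markers 10.49 to 27.24 and 15.5 to 25.64 CPM, over 5 endothelial markers 15.09 to 83.4 and 12.51 to 55.05 CPM, and over 5 macrophage markers 51.61 to 112.2 and 27.17 to 90.31 CPM. Sums over 7 erythroid markers were 64.97 to 2084 CPM in heterozygous libraries against 106.9 to 1606 CPM in deficient ones, with heterozygous 4, heterozygous 5 and deficient 5 the 3 globin-high libraries. Kitl and Amhr2 carried most of the pregranulosa sum, and single markers differed from it. Foxl2, Fst and Wnt4 were low in counts. Mean CPM in heterozygous and deficient libraries was 1.08 and 2.74 for Foxl2, 2.92 and 6.84 for Fst, and 1.12 and 2.38 for Wnt4. Log2 fold changes (deficient over heterozygous) were 1.35 ± 0.68 for Foxl2, 1.23 ± 0.46 for Fst and 1.08 ± 0.46 for Wnt4. Each of these was above the heterozygous median in all 5 deficient libraries, and so were Krt7 and Cdh5. The other pregranulosa markers had 0.092 (Kitl), -0.59 (Amhr2) and -0.38 (Lgr5). The endothelial marker Pecam1 had -1.16 ± 0.43, whereas Cdh5, Kdr, Tek and Emcn had 0.75, 0.18, 0.23 and 0.42. Unadjusted p was 0.0659 for Foxl2, 0.0182 for Fst, 0.0339 for Wnt4 and 0.0178 for Pecam1 in edgeR's test. No marker of these other cell types passed the adjusted threshold. The part of these other cells in the results below was not tested, and the counts over members were also taken without those 3 libraries.

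Ribosomal protein mRNA took a share of the counts that differed more between heterozygous libraries than between the genotypes. The 80 members held 3.55, 2.69, 1.19, 3.64 and 4.26% of the counts in heterozygous 1 to 5 and 3.57, 4.10, 2.70, 3.62 and 4.71% in deficient 1 to 5. Heterozygous 3 stood below every other library, and the other 4 heterozygous libraries fell within the range of the deficient ones or, for heterozygous 2, within 0.01 of its lower end. Mean shares were 3.07 ± 1.19% (SD, n = 5) in heterozygous and 3.74 ± 0.743% (SD, n = 5) in deficient oocytes, a difference of 0.674 percentage points. Without heterozygous 3 the heterozygous mean was 3.53 ± 0.647% and the difference 0.206 percentage points, which is less than either SD. Without deficient 5 it was 0.431. In bulk RNA fewer cells of a type and less RNA per cell cannot be told apart, and a share says nothing of the total RNA per oocyte.

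**Figure D1:**
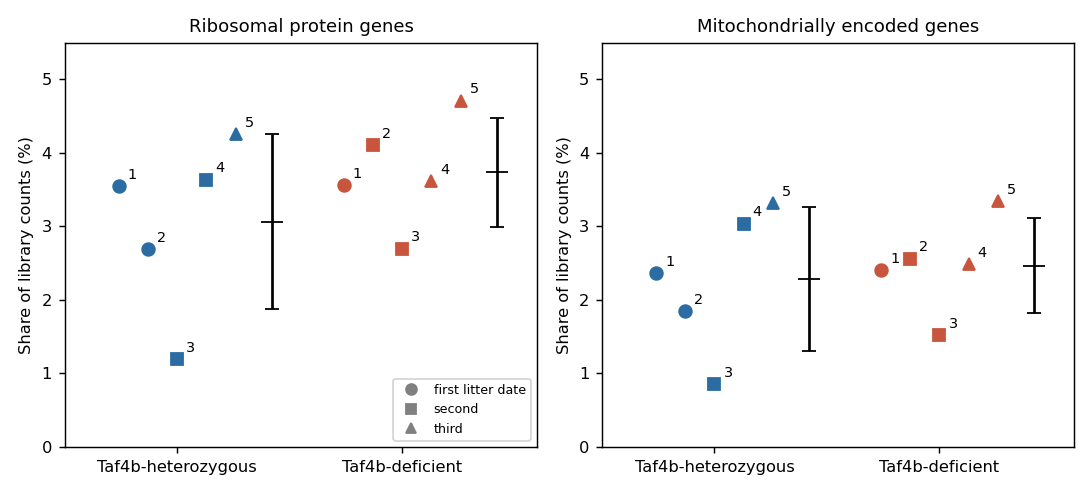
Share of library counts (percent, vertical axis) held by the 80 ribosomal protein genes and, in the second panel, by mitochondrially encoded genes, 1 numbered point per library by genotype, with symbols for the litter date and bars for mean and SD of 5 libraries. Heterozygous 3, at 1.19% and 0.853%, lies below every other library in both panels.

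The low share of heterozygous 3 was spread over nearly the whole family. In 76 of 80 members that library had the lowest CPM of all 10, as it did in 20.5% of the 19244 genes tested. Taken as the median over members of the log2 deviation from each gene's mean, the member level was 0.24, -0.29, -1.28, -0.072 and 0.30 in heterozygous 1 to 5 and 0.20, 0.42, -0.14, 0.31 and 0.45 in deficient 1 to 5. The same median over 2504 other genes with transcripts under 1000 bases was 0.0035 in heterozygous 3. The part of transcript length in the members' low level there was not tested. Mitochondrially encoded genes, which are outside the list, were low in the same library: they held 2.37, 1.85, 0.853, 3.04 and 3.31% of counts in heterozygous 1 to 5 and 2.41, 2.56, 1.52, 2.48 and 3.34% in deficient 1 to 5. The part of that share in the members' result was not tested; with mitochondrial genes left out of the total the difference in the members' share was 0.691 percentage points.

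Members moved together from library to library. The median correlation between pairs of members over the 10 libraries was 0.89, and 0.734 without heterozygous 3, on log2 CPM; these points share library and depth and the values are a description. The first principal component of the members carried 85.7% of their variance, and 65.2% without heterozygous 3. The highest library was deficient 2 for 27 members, deficient 5 for 21 and heterozygous 5 for 18. In 69 members the correlation with the median of the others was above 0.8, and in 4 it was below 0.5: Rpl3l at -0.014, Rpl10l at 0.338, Rpl24 at 0.379 and Rpl29 at 0.407. That list rests in part on heterozygous 3: without it Rpl3l and Rpl10l remained low at -0.043 and 0.131, Rpl24 was at 0.939 and Rpl29 at 0.742, while Rpl10 was at 0.323 and Rps10 at 0.302. Rpl24 and Rpl29 are among the members counted at the fewest reads. Between its lowest and highest library a member spanned a median of 1.63 log2 units within heterozygous and 0.683 within deficient libraries, the wider span being heterozygous in 77 of 80. Without heterozygous 3 the heterozygous median was 0.738, and the span was wider there in 48. These spans and correlations are not set beside all genes here, so they are not shown to be particular to the members.

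**Figure D2:**
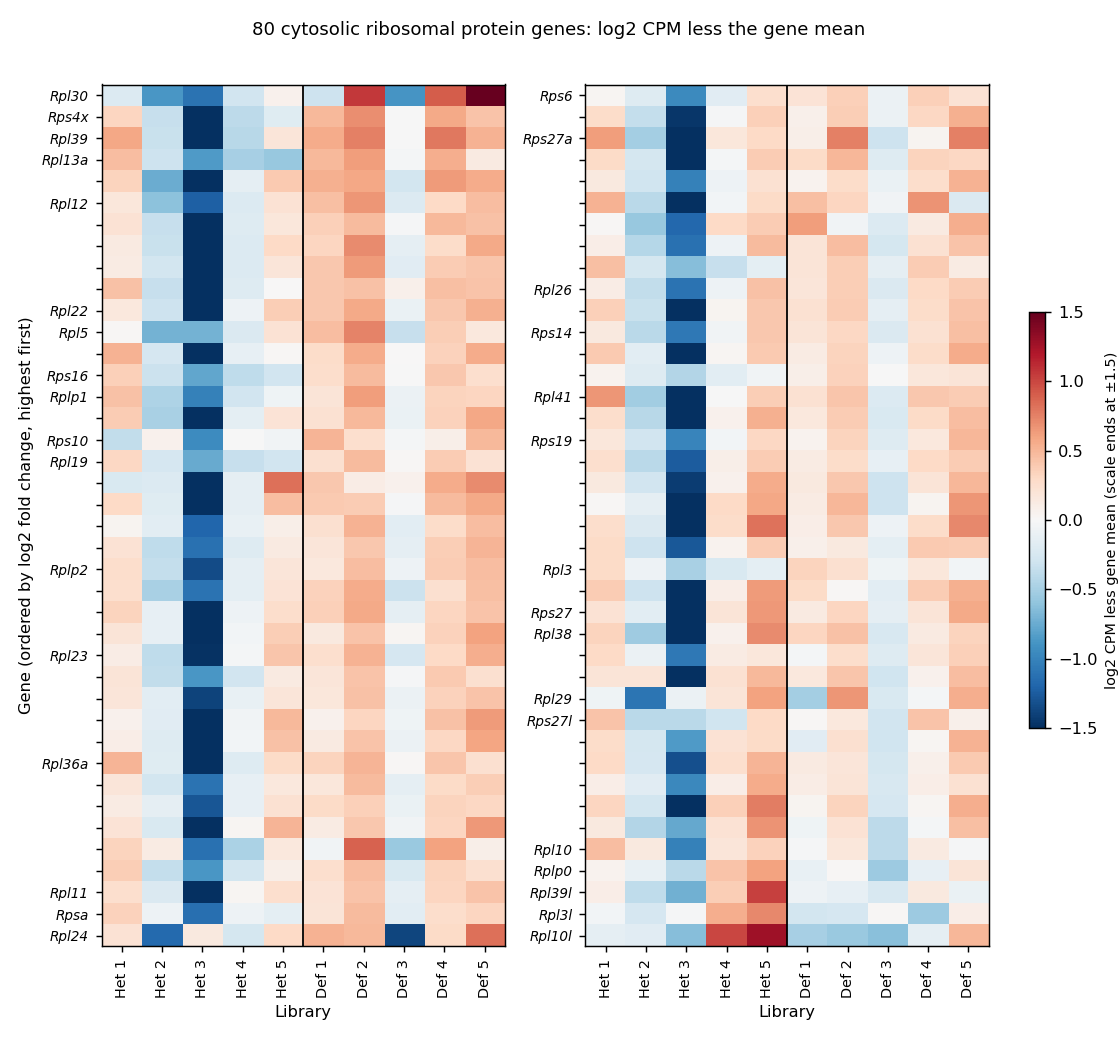
Log2 CPM of each of the 80 ribosomal protein genes (rows) less the gene's mean over the 10 libraries (columns, by genotype), ordered by log2 fold change, on a colour scale in log2 units that ends at ±1.5; rows of genes described in the text are labelled. The column of heterozygous 3 is low in nearly every row, with 76 members at their lowest there, the exceptions being Rpl3l, Rpl24, Rpl29 and Rplp0.

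The comparison the design makes is deficient against heterozygous oocytes. None of the 80 members passed the threshold of adjusted p under 0.05 in edgeR's quasi-likelihood test with Benjamini-Hochberg adjustment, as none did of all 19244 genes tested (0%). At an unadjusted p under 0.05 there were 3190 genes over the whole table; among them 7 members were higher in deficient oocytes (7.45% of all genes were) and 0 were lower (9.13% of all genes were). Estimated differences leaned one way: 75 of 80 members had a positive log2 fold change, against 48.9% of all genes, with a median of 0.37 against -0.015. Over the 2504 other genes with transcripts under 1000 bases the median was -0.11 with 39.2% positive. That lean rested in part on heterozygous 3, without which 64 of 80 were positive (49.5% of all genes) with a median of 0.19. Without litter date 2 the median was 0.21 and 70 were positive. Without the 3 globin-high libraries it was 0.54 with 77 positive, and without those and heterozygous 3 it was 0.21 with 72 positive. DESeq2 on the same counts called 0 members (1.61% of genes higher, 2.32% lower), and limma voom with quality weights 0 (1.36% and 1.29%). In no member did the 5 deficient libraries separate from the 5 heterozygous ones; 1.94% of all genes did so upward and 1.6% downward.

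Within litter dates, with 1 to 2 libraries of a genotype each, the deficient member level lay 0.22 log2 units above the heterozygous one on the first date, 0.81 on the second, which holds heterozygous 3, and 0.077 on the third. The difference in the members' share of counts was 0.449, 0.984 and -0.096 percentage points on these dates, so on the third the share was lower in deficient libraries. Positive members numbered 71, 75 and 50 of 80 in the same order, against 50.5, 52.7 and 50.3% of all genes. A search over 9330 ways of sorting the libraries into 3 levels found 1 grouping that came closest to the deposited fold changes, with a mean absolute difference of 0.0218 on the log2 scale against 0.027 for the next. It matches the litter dates in 6 of 10 libraries, and what it stands for is not stated in the sources used here. That grouping gave differences of 0.068, 0.87 and 0.33 log2 units within its levels, with 50, 77 and 71 members positive. With that grouping in the edgeR model 0 members were called (0.369% of genes higher, 0.171% lower).

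**Figure D3:**
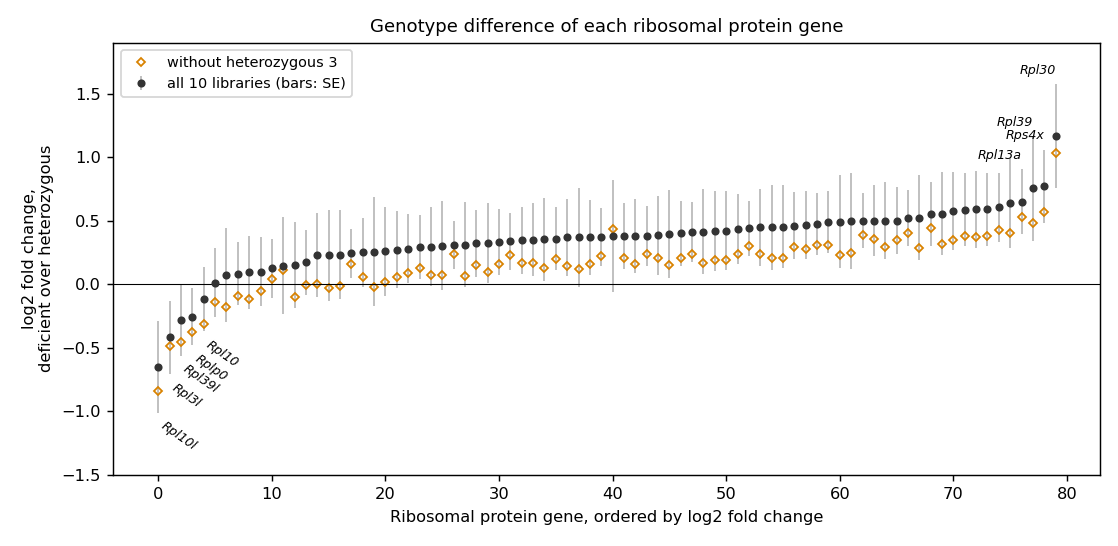
Log2 fold change of each ribosomal protein gene, deficient over heterozygous, from edgeR (vertical axis), with genes ordered by its size along the horizontal axis: filled points with standard error bars for all 10 libraries, open diamonds without heterozygous 3. In all 10 libraries 75 of 80 points lie above 0, from Rpl10l at -0.65 to Rpl30 at 1.17, and without heterozygous 3 most diamonds sit lower, with 64 above 0.

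The median log2 fold change of large and small subunit genes was 0.38 (44 of 49 positive) and 0.37 (31 of 31 positive), and 0.20 (40 positive) and 0.16 (24 positive) without heterozygous 3. Of the 7 members at an unadjusted p under 0.05, 5 belong to the large subunit (Rpl30, Rpl13a, Rpl19, Rpl12 and Rpl5) and 2 to the small one (Rps4x and Rps16). Rpl30 (GRCm38 chr15:34440505-34443640, minus strand) encodes a large subunit protein that in yeast represses its own splicing. It was at 41.9, 26.5, 22.5, 39.7 and 50.8 CPM in heterozygous 1 to 5 and 39.0, 101, 26.3, 91.1 and 150.1 CPM in deficient 1 to 5. Deficient 2, 4 and 5 stood high and the other deficient libraries fell within the heterozygous range. Its log2 fold change was 1.17 ± 0.41 (SE), the largest of the members, with an adjusted p of 0.200 in edgeR's test. Rpl13a (chr7:45125558-45128761, minus strand), which in human cells leaves the ribosome to silence translation of inflammatory mRNAs, was at 28.7, 16.9, 11.6, 14.8 and 14.1 CPM in heterozygous 1 to 5 and 29.2, 32.1, 20.5, 30.3 and 22.9 CPM in deficient 1 to 5. Heterozygous 1 alone reached the deficient values, and the log2 fold change was 0.65 ± 0.26 (adjusted p 0.238, edgeR). Without heterozygous 1 it was 0.917 with an adjusted p of 0.0428 in edgeR's test, the only fit among 28 alternatives in which a member was called; 1.42% of genes were then called higher and 1.65% lower. Rpl19, at the contact between the subunits, was at 764, 518, 364, 486 and 506 CPM in heterozygous 1 to 5 and 729, 854, 623, 805 and 716 CPM in deficient 1 to 5, with a log2 fold change of 0.50 ± 0.22. The genotypes overlap in Rpl19 through heterozygous 1 alone. Rpl12 lies at the base of the stalk, and its level was 192 ± 70.7 CPM in heterozygous oocytes against 292 ± 60.0 CPM in deficient ones (SD, n = 5 each), a log2 fold change of 0.61 ± 0.27.

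Rpl5, Rpl11 and the 5S rRNA form a particle that, when not built into ribosomes, binds MDM2 and stabilises p53. Rpl5 was at 299, 181, 180.0, 253 and 343 CPM in heterozygous 1 to 5 and 408, 494, 231, 380.2 and 329.7 CPM in deficient 1 to 5. The log2 fold change of Rpl5 was 0.55 ± 0.25 and that of Rpl11 was 0.38 ± 0.29, from 240.3 ± 92.5 CPM in heterozygous oocytes against 313 ± 47.2 CPM in deficient ones. Rpl23 and Rpl26, which also bind MDM2 or p53 mRNA, had log2 fold changes of 0.45 ± 0.30 and 0.33 ± 0.26. Without heterozygous 3 the estimates were 0.16 for Rpl11, 0.24 for Rpl23 and 0.16 for Rpl26, and 0.44 for Rpl5. Rpl22, whose loss blocks development of a class of T cells in mice, was at 118 ± 52.6 CPM in heterozygous oocytes against 173 ± 29.1 CPM in deficient ones, with 0.56 ± 0.33, and 0.31 without heterozygous 3. Rpl38, needed for translation of Hox mRNAs in mouse embryos, had 0.23 ± 0.33, and -0.002 without heterozygous 3. Rpl41, which encodes a very short basic peptide, had 0.30 ± 0.35, and 0.069 without heterozygous 3. None of these genes passed the adjusted threshold.

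The stalk recruits the GTPases of translation to the large subunit and is made of Rplp0 with copies of Rplp1 and Rplp2. Its genes did not lean alike. Rplp1 was at 1056, 569, 387, 638 and 747 CPM in heterozygous 1 to 5 and 896, 1212, 735, 986 and 977 CPM in deficient 1 to 5. Rplp2 was at 365, 238, 120.1, 277 and 345 CPM in heterozygous 1 to 5 and 339, 418, 289, 396 and 417 CPM in deficient 1 to 5. In both, deficient 3 was the lowest deficient library and fell among the heterozygous values, as did deficient 1. For Rplp1 deficient 4 and 5 also lay below heterozygous 1. Log2 fold changes were 0.50 ± 0.26 for Rplp1 and 0.47 ± 0.27 for Rplp2, and 0.35 and 0.27 without heterozygous 3. Rplp0, the anchor, was at 264, 235, 191, 341 and 383 CPM in heterozygous 1 to 5 and 234, 256, 174, 232 and 288 CPM in deficient 1 to 5, with -0.26 ± 0.22. Heterozygous 4 and 5 were highest for Rplp0, and the difference between Rplp0 and its partners was not tested.

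All 31 small subunit members had positive estimates in the fit of all 10 libraries, and 24 without heterozygous 3. Rps4x (chrX:102184941-102189394, minus strand), an X-linked gene that escapes X inactivation in humans, was at 391, 246, 104, 239 and 276 CPM in heterozygous 1 to 5 and 439, 508, 311, 464 and 422 CPM in deficient 1 to 5. Only heterozygous 1 exceeded the lowest deficient value, and the log2 fold change was 0.77 ± 0.29 (adjusted p 0.219, edgeR), or 0.57 without heterozygous 3. Rps16, near the site where tRNA is held on the small subunit, was at 443, 276, 201, 265 and 283 CPM in heterozygous 1 to 5 and 413, 480.1, 344, 456 and 411 CPM in deficient 1 to 5, with 0.52 ± 0.22. Rps6, the substrate of the S6 kinases downstream of mTORC1, was at 559, 477, 282, 487 and 649 CPM in heterozygous 1 to 5 and 631, 699, 513, 700.3 and 634 CPM in deficient 1 to 5. The Rps6 ranges overlap, with a log2 fold change of 0.37 ± 0.23, and 0.22 without heterozygous 3. Rps14 and Rps19, each tied to inherited or acquired anaemia in humans when 1 copy is lost, had 0.32 ± 0.26 and 0.29 ± 0.25. Rps27a, made as a fusion with ubiquitin, had 0.37 ± 0.39, and Rpsa, also known as the laminin receptor, 0.38 ± 0.26. Without heterozygous 3 these were 0.15 for Rps14, 0.13 for Rps19, 0.12 for Rps27a and 0.20 for Rpsa.

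Estimates of the 4 X-linked members did not share a sign. Beside Rps4x, Rpl39, a protein of the exit tunnel, was at 269, 142, 29.2, 134 and 202 CPM in heterozygous 1 to 5 and 263, 301, 178, 309.5 and 257 CPM in deficient 1 to 5. Its lowest library was again heterozygous 3, and the log2 fold change was 0.75 ± 0.41, 0.48 without that library. Rpl36a had 0.41 ± 0.34, 0.17 without it, with 243 ± 115 CPM in heterozygous oocytes against 323 ± 40.5 CPM in deficient ones. Rpl10, which joins the large subunit late and is needed for the subunits to combine, was at 412, 330.4, 147, 337 and 379 CPM in heterozygous 1 to 5 and 295, 335, 227, 327 and 294 CPM in deficient 1 to 5. The deficient values lie inside the heterozygous range, with -0.12 ± 0.25, and -0.31 without heterozygous 3.

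All 5 members with a negative estimate are Rplp0, Rpl10 or tissue-restricted paralogs. Rpl10l (chr12:66283379-66284401, minus strand), an autosomal retrogene copy of Rpl10 needed for male meiosis in mice, was at 54.5, 53.0, 38.3, 119 and 144 CPM in heterozygous 1 to 5 and 42.5, 40.7, 38.6, 54.3 and 84.4 CPM in deficient 1 to 5. Heterozygous 4 and 5 and deficient 5, the globin-high libraries, held its highest values. Its log2 fold change was -0.65 ± 0.36 (adjusted p 0.380, edgeR). Rpl39l (chr16:10170226-10174911, plus strand), a paralog of Rpl39 known from male germ cells in mice, was at 60.4, 43.1, 34.1, 72.6 and 114 CPM in heterozygous 1 to 5 and 53.3, 51.5, 47.4, 62.0 and 52.5 CPM in deficient 1 to 5. Its log2 fold change was -0.28 ± 0.28, -0.46 without heterozygous 3 and 0.23 without the 3 globin-high libraries. Rpl3l (chr17:24727820-24736143, plus strand), the form of Rpl3 found in heart and skeletal muscle, was at 2.64, 2.28, 2.68, 3.97 and 4.49 CPM in heterozygous 1 to 5 and 2.23, 2.27, 2.75, 1.85 and 2.90 CPM in deficient 1 to 5, with -0.42 ± 0.29. Rps27l (chr9:66946086-66949516, plus strand), a p53 target in human cells, had 0.12 ± 0.23, and 0.037 without heterozygous 3.

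Each paralog was also set against its canonical partner as its share of the pair's counts, which removes whatever scales both. Rpl39l made up 18.4, 23.3, 53.9, 35.2 and 36.1% of the counts of Rpl39 and Rpl39l in heterozygous 1 to 5, and 16.9, 14.6, 21.0, 16.7 and 16.9% in deficient 1 to 5. Heterozygous 3, in which Rpl39 itself was low, had the highest share, and heterozygous 1 lay within the deficient range. The means were 33.4 ± 13.8% (SD, n = 5) in heterozygous and 17.2 ± 2.34% in deficient oocytes. The log2 ratio of Rpl39l to Rpl39 differed by -1.20, deficient minus heterozygous, with an exact two-sided permutation p of 0.0159 and 0.0635 after adjustment over 4 pairs. Without heterozygous 3 that difference was -0.88. For Rpl3l the share was 0.727 ± 0.257% against 0.455 ± 0.129% (difference in log2 ratio -0.65, exact permutation p 0.0794, adjusted 0.159). For Rpl10l it was 19.95 ± 7.10% against 14.9 ± 4.40% (-0.48, exact permutation p 0.246, adjusted 0.328). For Rps27l it was 62.2 ± 12.2% against 58.5 ± 4.26% (-0.28, exact permutation p 0.683, adjusted 0.683). Without heterozygous 3 the differences were -0.61 for Rpl3l, -0.44 for Rpl10l and 0.082 for Rps27l, whose sign turned. The genotypes overlap in every pair, no pair passed after adjustment, the smallest p that 5 against 5 allows is 0.00794, and this comparison was chosen after the values were seen. Counts are not divided by length here, so a share is comparable between libraries and not a ratio of molecules. The size of a share also depends on the measure. Mean TPM was 878 for Rpl10l and 179 for Rpl10, against mean CPM of 66.9 and 308. For Rpl39l and Rpl39 mean TPM was 10.0 and 208, against 59.1 and 209 CPM. For Rps27l and Rps27 it was 95.4 and 2820, against 571 and 391 CPM.

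**Figure D4:**
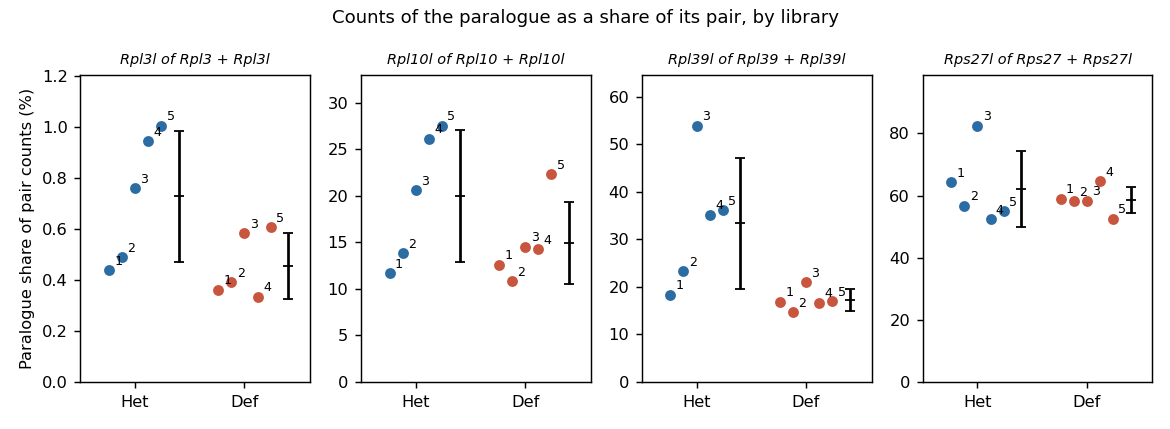
Share of each paralog in the counts of its pair (percent, vertical axis) for Rpl3l, Rpl10l, Rpl39l and Rps27l, 1 point per library by genotype, with mean and SD of 5 libraries and a vertical scale of its own for each pair. The heterozygous points of Rpl39l reach 53.9% in heterozygous 3, while its deficient points lie close together around 17.2%.

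On a per-length scale the members spread widely, and the deposited TPM and the counts placed some of them differently. Mean TPM over the 10 libraries was 8027 for Rpl19 and 2820.1 for Rps27, the top of the order, and was lowest for Rps10 (1.41), Rpl3l (2.25) and Rpl29 (3.57). Divided by the median length of its coding transcripts, CPM per kb was 1644 for Rplp1, 1561 for Rps19, 981 for Rps27 and 855 for Rpl19, so Rplp1 and Rps19 stood above Rpl19 on this scale and below it in TPM. Over 14495 coding genes the ratio of TPM to CPM per kb had a median of 0.775 and a 5 to 95% range of 0.151 to 6.85. Rpl10l (13.4) and Rpl19 (9.38) lay above that range and 13 members below it. Rpl3l was near the bottom on both scales, and the place of Rpl19 depends on the scale.

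Ribosomal protein genes have many processed copies in the mouse genome, and the counting's handling of reads that map to several places is not given in the sources used here. In the annotation matching the files (GENCODE vM21), 77 of 80 members share at least 1 stretch of 50 bases with another gene, a median of 35.8% of their stretches, and 26 share more than 50%. Rpl35 is highest at 95.1%, and the paralogs Rpl39l and Rpl3l share none. Among the 7 members at an unadjusted p under 0.05 in edgeR's test, Rpl30, Rpl19, Rps4x and Rpl5 share 72.8, 73.9, 72.2 and 85.4%. Rpl12, Rpl13a and Rps16 share 49.4, 41.1 and 41.6%. The part of such sharing in their differences was not tested. Mean CPM was under 5 in 4 members. Besides Rpl3l these were Rpl24, Rpl29 and Rps10, parts of the general ribosome, which share 81.7, 35.5 and 30.8% of their stretches with other genes; their low counts are uncertain as levels. The 304 pseudogenes named after ribosomal proteins held 0.034 to 0.151% of counts, or 2.86 to 3.67% of the members' own counts. For the 19 members with no pseudogene named after them the difference in share was 0.142 percentage points.

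**Figure D5:**
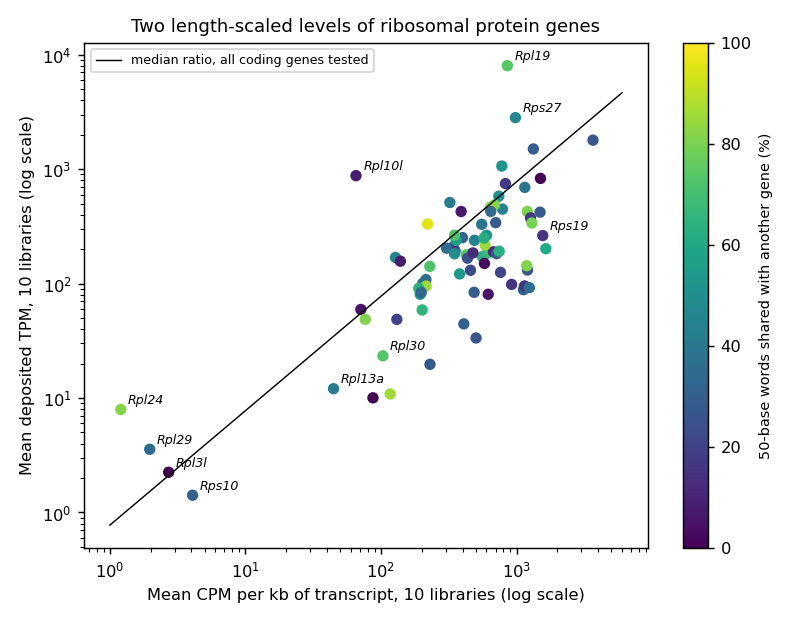
Mean TPM against mean CPM per kb of coding transcript for the 80 ribosomal protein genes, both axes logarithmic, 1 point per gene, coloured by the percent of its 50-base stretches shared with another gene; the line is the median ratio of all coding genes tested, 0.775. Rpl10l and Rpl19 lie farthest above the line, with ratios of 13.4 and 9.38, and Rpl24, Rpl29, Rps10 and Rpl3l form the low end of CPM.

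Genes that act with the ribosome were read off the same edgeR fit, in which none passed the adjusted threshold. Of 22 translation factors and other TOP mRNAs 17 had a positive estimate (median 0.23), and of 8 ribosomal proteins outside the naming rule 6 did (median 0.25), against 48.9% of all genes. Without heterozygous 3 these were 14 of 22 (median 0.13) and 4 of 8 (median 0.10). Rack1, a small subunit scaffold for kinases, was at 593, 386, 364, 384 and 418 CPM in heterozygous 1 to 5 and 752, 838, 537, 783 and 695 CPM in deficient 1 to 5. Its log2 fold change was 0.75 ± 0.21 (adjusted p 0.151, edgeR). In Rack1 the genotypes overlap only through heterozygous 1. Pabpc1, the poly(A) binding protein, had 0.50 ± 0.19, and Hnrnpa1 -0.71 ± 0.24.

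Genes that build ribosomes had mostly negative estimates. Of 63 genes for rRNA processing and ribosome assembly 45 had a negative estimate (18 positive, median -0.14). Over all genes tested the median was -0.015 with 48.9% positive. For the 7235 non-member genes with transcripts of 1000 to under 3000 bases it was -0.14 with 38% positive. For the 4676 non-member genes with transcripts of 3000 bases or more it was 0.067 with 55.6% positive. The part of transcript length in the estimates of genes that build ribosomes was not tested. In the assembly list 12 genes were lower at an unadjusted p under 0.05 against 0 in the other direction (9.13% and 7.45% of all genes). Without heterozygous 3 the median was -0.069 and 24 were positive. Of 15 RNA polymerase I genes 12 were negative (median -0.15). Rrp9, a protein of the U3 snoRNP, was at 22.8, 22.1, 43.3, 26.0 and 22.5 CPM in heterozygous 1 to 5 and 12.2, 16.8, 13.0, 13.8 and 18.4 CPM in deficient 1 to 5. Every deficient value of Rrp9 lies below every heterozygous one, with -0.88 ± 0.23 (adjusted p 0.145, edgeR), -0.66 without heterozygous 3. Nle1, an assembly factor of the large subunit, had -1.21 ± 0.36, Polr1c -0.61 ± 0.22 and Ubtf, which loads RNA polymerase I, -0.37 ± 0.20. The difference between these lists and the members was not tested.

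Among 21 genes of mTORC1, MYC and LARP1 control 13 were positive (median 0.12, and 0.19 without heterozygous 3). Mtor, the kinase of the complex, was at 87.7, 106, 80.1, 71.3 and 61.7 CPM in heterozygous 1 to 5 and 117, 135, 192, 128 and 102 CPM in deficient 1 to 5, with 0.73 ± 0.21. Eif4ebp1, the translation repressor that mTORC1 inactivates, was at 26.0, 16.9, 31.4, 50.6 and 78.2 CPM in heterozygous 1 to 5 and 16.7, 15.5, 11.4, 17.8 and 24.1 CPM in deficient 1 to 5, with -1.25 ± 0.36. Heterozygous 4 and 5 were highest for Eif4ebp1 and deficient 3 lowest. Of 14 ribosome quality control genes 9 were positive (median 0.10), among them Zfp598, which marks collided ribosomes, at 1.10 ± 0.32, while Hbs1l, which helps to split stalled ribosomes, had -0.67 ± 0.28, and -0.31 without heterozygous 3. Calls in these lists depended on the tool: DESeq2 called 1 of the other ribosomal proteins (Rack1), 2 assembly genes (Rrp9 and Nle1), 2 genes of mTORC1 control (Eif4ebp1 among them) and 1 of quality control (Zfp598). With limma voom the counts were 2 (Rack1 among them), 1 (Rrp9), 0 and 1 (Zfp598), and edgeR without heterozygous 1 called Rack1 and Zfp598 among others. Over all genes DESeq2 called 1.61% higher and 2.32% lower, and limma voom 1.36% and 1.29%. For edgeR without heterozygous 1 these shares were 1.42% and 1.65%.

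The authors' deposited table, made from the same counts with DESeq2, called 3 members at an adjusted p under 0.05, all higher in deficient oocytes; 3.2% of its 17881 genes with an adjusted p were called higher and 3.36% lower. In the authors' deposited table Rpl30 had a log2 fold change of 1.22 (adjusted p 0.00912), Rpl12 of 0.63 (adjusted p 0.0375) and Rps4x of 0.75 (adjusted p 0.0461). The same deposited table gave Rack1 0.67 (adjusted p 0.00498), Mtor 0.65 (adjusted p 0.0174) and Zfp598 0.98 (adjusted p 0.0124) as higher. It gave Rrp9 -0.87 (adjusted p 0.0179) and Eif4ebp1 -0.94 (adjusted p 0.00901) as lower. These values come from the same libraries as the present fit, in which Eif4ebp1 was at -1.25. With the 3-level grouping in the edgeR model Eif4ebp1 was at -0.91, Rpl30 at 1.25, Rpl12 at 0.65 and Rps4x at 0.76. That grouping was picked for its closeness to the deposited fold changes, so the nearness of these estimates to them was fixed in advance.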

How the data were processed

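The 10 libraries of E16.5 oocytes, 5 of each genotype, came with 3 deposited tables. The first holds whole-number counts, for which the submitters' processing notes name Trim Galore 0.5.0, HISAT2 2.1.0, SAMtools 1.9, featureCounts of Subread 1.6.2 and GRCm38. The second holds deposited TPM, attributed there to StringTie 1.3.3b. How strand and multiply mapped reads were treated is not stated in those notes. The third is the authors' DESeq2 comparison, per the file headers: a mean normalised count (signal), a log2 fold change and error, a Wald score, and a p-value with its adjusted form.

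Counts of the 19244 of 55536 genes that passed edgeR's low-count filter were fitted with genotype only by edgeR 4.0.16 quasi-likelihood in R 4.3.3, with TMM scaling and Benjamini-Hochberg adjustment over all genes tested; the code was tested on simulated data. CPM values use the same scaling. Alternatives used DESeq2 1.42.0 and limma 3.58.1, with log2(TPM + 1) where TPM was tested. Genes without a symbol numbered 382. Genes named are paralog pairs, X-linked, stalk and special-role members, the 5 smallest p in each direction, the 3 highest and 3 lowest TPM, and up to 2 genes from each comparison list; others were chosen after their values were seen. Members and lists were chosen with earlier results of these data known. Promoter sequences are from RefSeq. A few genes that the naming rule selects are not reported here.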

Additional observations from a re-analysis of the deposited data

Results flagged for a closer look

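Dixon's criterion for a library far from the rest, which chance meets in about 5% of groups, was applied to 88 groups of 5 libraries. These groups did not take in every one of the 80 members. The criterion was met in 3 of them, all in heterozygous oocytes and in genes outside the member list. Rack1 was at 593 CPM in heterozygous 1, with the next library at 418. Rrp9 was at 43.3 CPM in heterozygous 3, with the next at 26.0. Hbs1l was at 408 CPM in heterozygous 3, with the next at 197. Rps12 and Rpl10a are members that were left out of these groups, and heterozygous 3 stood far below the rest of its genotype in both. Rps12 had 24.3 CPM there, with the next library at 105, and Rpl10a had 149 CPM, with the next at 305. The groups therefore do not show that members were free of such a library.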

How the results depend on the processing

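The members' median log2 fold change was positive in all 28 alternatives (0.191 to 0.543), with 64 to 77 of 80 members positive (79 were tested under the 1 CPM filter) and 0 called, except that leaving out single libraries gave between 0 and 1 called. The difference in share of the 80 members ranged from 0.206 to 1.02 percentage points, and was 0.142 for the 19 members without a named pseudogene, which hold only part of it; it ranged from 0.206 to 0.973 when single libraries were left out. With no low-count filter the median of all genes was 0.12, and with log2(TPM + 0.1) it was -0.11, so a member's change is relative to that. Over all genes 0 were called in the fit reported, 697 by DESeq2, 510 by limma voom and 606 without heterozygous 1. With no low-count filter 251 were called, with the 3-level grouping found by search 104, and with the replicate block 1. Some small estimates changed sign. With litter date in the model Rpl29 was -0.0105. When single libraries were left out in turn, Rpl29 ranged from -0.0425 (without heterozygous 2; -0.00815 without deficient 2) to 0.342, Rps27 from -0.0282 to 0.446 and Rpl38 from -0.00201 to 0.482, the lowest values of Rps27 and Rpl38 being without heterozygous 3. Rpl39l ranged from -0.456 to 0.0187, the highest without heterozygous 5. Without the 3 globin-high libraries Rpl39l was 0.227, and without those and heterozygous 3 it was 0.0527. Rpl10 was 0.0514 without litter date 1 and 0.00168 without the globin-high libraries. The cause was not tested. The setting that leaves out both heterozygous 3 and the globin-high libraries was chosen after seeing the data. Same-numbered libraries of the genotypes correlated in their deviations at 0.169, 0.0346, 0.118, -0.262 and 0.593. Only for number 5 was the same-numbered library the best partner. The labels do not say whether the numbers pair the libraries, and these values do not settle it. With the replicate block 0 members were called, the median was 0.473 and 75 were positive. With 5 libraries a group and adjustment over 19244 genes, differences of the size seen in the members were not called, and genes whose reads match copies carry that uncertainty.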

Other observations

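Of the comparison genes, Larp1, which binds TOP mRNAs, was at 40.3, 38.1, 31.3, 36.6 and 41.3 CPM in heterozygous 1 to 5 and 50.8, 60.1, 47.7, 53.6 and 51.7 CPM in deficient 1 to 5. Every deficient value of Larp1 exceeds every heterozygous one, and its log2 fold change was 0.49 ± 0.16 (adjusted p 0.176, edgeR's quasi-likelihood test), 0.43 without heterozygous 3. Akt1s1, an inhibitory subunit of mTORC1, was at 38.2, 29.7, 47.6, 43.0 and 30.5 CPM in heterozygous 1 to 5 and 23.9, 22.6, 29.1, 28.9 and 23.7 CPM in deficient 1 to 5, with no overlap in the other direction and -0.56 ± 0.19. Rrp9 also had no overlap, as did 3 further assembly genes. Wdr43 and Tcof1, which act in early rRNA synthesis, had -0.41 ± 0.19 (-0.22 without heterozygous 3) and -0.57 ± 0.19, and Lsg1, a late export and release GTPase of the large subunit, -0.47 ± 0.16, all lower in each deficient library. Such separation upward held in 1.94% of all genes tested and downward in 1.6%. All but Rrp9 were singled out after their values were seen, and none passed the adjusted threshold in that test.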
